A study of Mastomys natalensis with 3 samples.

Results

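The genes described are 9 heat shock proteins and molecular chaperones: Hspa5, Hspa8, Hspd1, Hspe1, Hspb1, Hspb2, Dnajb1, Hsp90ab1 and Clu. They were found by gene symbol in the platform annotation, which gave 20 probe sets carrying the symbol of 1 member alone, among 8740 non-control probe sets. These cover 8 of the 9 genes. Hspa8, the constitutive cytosolic HSP70, appears only on 2 probe sets that also list Haus8l2, and 1 further probe set lists Hspb1 beside Asb2, so these 3 entered no count. RNA from Mastomys natalensis, a rodent prone to gastric carcinoids, was hybridised to a rat expression array, with 1 array for each of 3 groups. All samples were described as enriched populations of ECL cells (enterochromaffin-like cells), which store histamine in the stomach. The groups were animals given loxtidine, an H2 receptor antagonist, for 8 weeks, animals given it for 16 weeks, and animals in which an ECL cell carcinoid had arisen spontaneously. The labels gave no age, sex, number of animals or pooling, and no untreated group was among the samples. The tissue source of the 8-week sample was entered as ECL cells and that of the other samples as mucosa. Each array carried its own lot entry. Group and lot therefore cannot be told apart. Nor can the tissue entry be told apart from group where 8 weeks is compared with the other arrays.

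Chaperones bind unfolded or partly folded proteins and help them to fold, to assemble or to be degraded. In the cytosol, HSP70 proteins work with J-domain partners such as Dnajb1 and hand clients on to HSP90, while small heat shock proteins hold unfolding proteins in a soluble state. Mitochondria fold imported proteins in the Hspd1 and Hspe1 chaperonin, the endoplasmic reticulum relies on Hspa5 and its partners, and clusterin acts outside the cell. Many of these genes are induced by heat shock factors or by the unfolded protein response when cells are stressed, including during tissue dissociation.

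Each group has 1 array. No p-value can therefore be given, no difference was checked in replicates, and the values describe these arrays. The arrays were quantile normalized, and a value below the pooled median of 12.4 (the floor) was raised to it. A fold is therefore written as "at least" where only 1 of the arrays reached the floor. The median deposited intensity of non-control probe sets was 10.2 to 13.9. The spread among probe sets that share a gene, on the log2 scale, was 0.79 for 16 against 8 weeks, 0.84 for carcinoid against 8 weeks and 0.63 for carcinoid against 16 weeks. It was the only error that could be measured and holds no variation between animals. The ratio of 3' to 5' signal of the GAPDH control was 8.95 at 8 weeks, 1.43 at 16 weeks and 2.31 for carcinoid, and that of beta-actin was 16.1, 6.71 and 11.7. Of 16 ECL and neuroendocrine marker genes on the array, 11 reached the floor on at least 1 array. The histamine-forming enzyme Hdc did not (deposited intensity 3.7, 5.2 and 3.4), so ECL cells were not detected by that marker. The gastrin receptor Cckbr read 54.7, 60.5 and 40.2 on the probe set used, and 2.2, 35.7 and 3.0 on M99418_at. The vesicular monoamine transporter Slc18a2 reached the floor on every array on the probe set used (normalized 21.8, 42.3 and 23.2). Its other probe set, L00603_at, reached it on none. Fewer cells of a type and less RNA per cell cannot be told apart in such bulk samples.

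After normalization, 10 of the 17 chaperone probe sets that reached the floor were highest at 8 weeks, and 9 were lowest on the carcinoid array. As deposited, 7 were highest at 8 weeks and 7 on the carcinoid array, and 7 and 6 were lowest there, so this order depended on the normalization. The order over all probe sets is not given, so these counts have no background to be read against. Several of these probe sets also share a gene. Of the 20 probe sets, 15 reached the floor on every array, 2 on part of the arrays and 3 on none. At 16 weeks, 6 lay 2-fold or more below their 8-week value and 1 above it, 10 differed by less and 3 gave no fold. The lower ones belonged to Dnajb1 (both of its probe sets), Hspb1 (2 of 4), Hspd1 (1 of 2) and Hspa5 (1 of 3), and the higher one to Hspb2. Among all 5586 probe sets with a value in this comparison, 13.0% were lower by that much and 13.9% higher. Of the 17 chaperone probe sets with a value, 35.3% were lower and 5.88% higher. On the carcinoid array, 8 were lower than at 8 weeks and 2 higher, where the shares over all 5620 probe sets were 14.0% lower and 14.6% higher. Between carcinoid and 16 weeks the counts were 2 lower and 2 higher, near the shares of 9.67% lower and 9.38% higher over all 5439 probe sets. The 3 comparisons share arrays and are not independent of each other.

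The size of this shift depended on how the arrays were scaled. In the intensities as deposited, 3 chaperone probe sets were lower by 2-fold or more at 16 than at 8 weeks and 1 higher, against 6.38% lower and 21.8% higher over all probe sets. For carcinoid against 8 weeks the deposited counts were 5 lower and 3 higher, against 6.04% and 25.8%. For carcinoid against 16 weeks they were 2 lower and 2 higher, against 9.62% and 12.2%. The median log2 difference of the chaperone probe sets at 16 against 8 weeks was -0.86 after quantile normalization and -0.12 as deposited, where all probe sets had medians of -0.01 and 0.35. For carcinoid against 8 weeks it was -0.85 and 0.09, beside -0.03 and 0.42. In these comparisons with 8 weeks the chaperone median lay below that of all probe sets under both scalings, while its sign for carcinoid did not hold. For carcinoid against 16 weeks it was -0.11 beside 0.01 after normalization, and above the rest as deposited (0.18 beside 0.09).

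**Figure D1:**
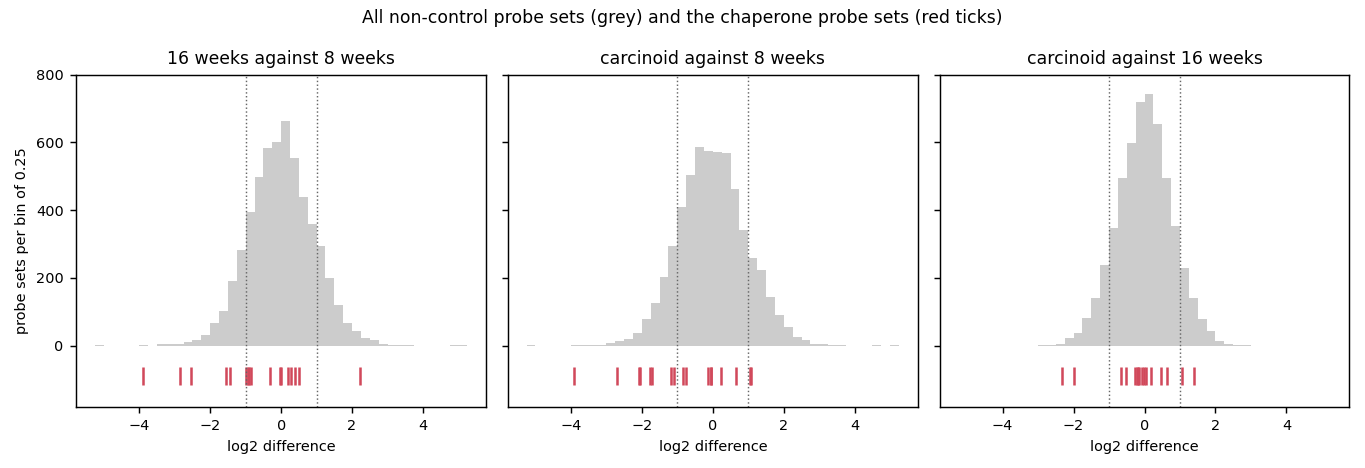
Histograms of the log2 difference of all non-control probe sets in the 3 comparisons (horizontal axis, log2 difference after quantile normalization; vertical axis, probe sets per bin), with a red tick below for each chaperone probe set that has a value and dotted lines at 2-fold. In the comparisons with 8 weeks, 6 and 8 ticks lie at or beyond the lower 2-fold line, against 1 and 2 beyond the upper one.

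Other bright probe sets had medians above those of the bright chaperone probe sets. This subset was chosen after seeing the data, and some of its chaperone probe sets share a gene. The 8 chaperone probe sets with a mean deposited intensity of at least 100 had a median log2 difference of -0.92 for 16 against 8 weeks, and the other 465 probe sets that bright had a median of 0.09. For carcinoid against 8 weeks the medians were -0.97 and 0.17. As deposited, the bright chaperone probe sets stood at -0.19 and -0.05 and the other bright probe sets at 0.75 and 1.03. The 9 bacterial hybridisation controls moved by -0.17 and -0.55 as deposited and by -0.82 and -1.35 after normalization. Scaling by those controls placed the chaperone medians at 0.04 and 0.53, beside 0.47 and 0.86 over all probe sets. Of 17 chaperone probe sets, 13 kept their direction under all 4 scalings for 16 against 8 weeks (7 lower, 6 higher), and 9 did so for carcinoid against 8 weeks (5 lower, 4 higher). A direction was counted at any size, as for Hsp90ab1 rc_AI007820_s_at, at 0.0078 after quantile normalization for 16 against 8 weeks. Shares over all probe sets are not given, so these counts have no background to be read against.

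Dnajb1, the J-domain protein that delivers clients to HSP70 and stimulates its ATPase, was highest at 8 weeks on both of its probe sets. The probe set rc_AA859648_at read 110.7 at 8 weeks, 23.8 at 16 weeks and 53.8 on the carcinoid array as deposited, and 160, 22.4 and 46.6 after normalization. The probe set rc_AA945704_at read 124.5, 33.8 and 31.5 as deposited, and 182, 31.3 and 28.2 after normalization. Both stayed lower at 16 weeks and on the carcinoid array than at 8 weeks under all 4 scalings. At 16 weeks they were 7.15-fold and 5.81-fold lower than at 8 weeks (4.65-fold and 3.68-fold as deposited). Among all probe sets, 0.286% and 0.465% lay as low or lower in that comparison. On the carcinoid array they were 3.44-fold and 6.46-fold lower than at 8 weeks (2.06-fold and 3.95-fold as deposited). They differed on carcinoid against 16 weeks, where rc_AA859648_at was 2.08-fold higher and rc_AA945704_at 1.11-fold lower. The drop from 8 weeks exceeded the spread between probe sets of a gene on both after normalization and as deposited. Scaled by the hybridisation controls, the carcinoid difference of rc_AA859648_at was -0.46 on the log2 scale, smaller than the spread of 0.84. The order of the carcinoid and 16-week arrays differed between them.

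Immediate early genes, transcripts that rise within minutes of stimulation or cell handling, included several that were also lower on those arrays. Of 18 such genes with a value, 7 were lower by 2-fold or more at 16 than at 8 weeks and 0 higher, where 12.9% of all genes were lower. For carcinoid against 8 weeks, 8 were lower and 0 higher, where 13.7% of all genes were lower. The remaining genes did not reach 2-fold. On the probe sets used, Egr4 and Nr4a2, also transcription factors, were 1.41-fold and 1.81-fold higher at 16 weeks. Nr4a3 was at least 1.8-fold higher there, and Gadd45a 1.39-fold higher. The summed normalized intensity of the immediate early genes was 5220.0 at 8 weeks, 987 at 16 weeks and 1443 for carcinoid. Egr1, a zinc finger transcription factor, gave 3126, 96.4 and 265 of these sums on its brightest probe set. Its probe set M18416_at was 8.44-fold lower at 16 weeks and 7.52-fold lower on the carcinoid array than at 8 weeks. On rc_AI176662_s_at it was 1.995-fold and 1.19-fold lower. In contrast, U75398_s_at was below the floor at 8 weeks, and at least 1.56-fold higher at 16 weeks and 3.05-fold higher for carcinoid. The part of such a response, or of the dim 5' controls of the 8-week array, in the Dnajb1 difference was not tested. Both Dnajb1 probe sets were made from expressed sequence tags (ESTs).

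**Figure D2:**
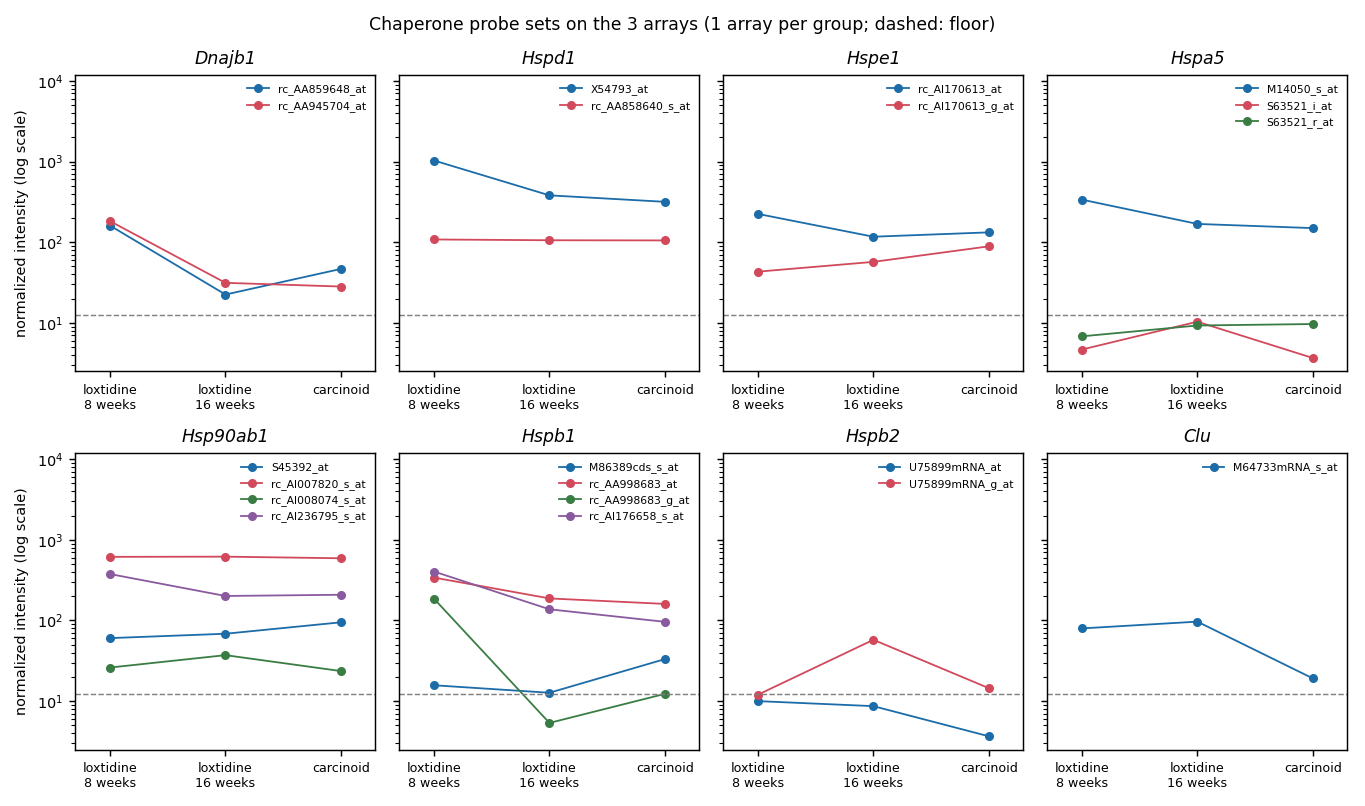
Normalized intensity (vertical axis, log scale) of every chaperone probe set on the 3 arrays (horizontal axis), 1 panel per gene and 1 line per probe set, with the floor of 12.4 dashed. Both Dnajb1 lines fall from above 160 at 8 weeks to below 50 on the other arrays, whereas Clu falls only on the carcinoid array, to 19.2.

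The HSP70 that Dnajb1 serves could not be read cleanly. The 2 probe sets that list Hspa8 together with Haus8l2 read 105.8, 291.6 and 381.7 (rc_AI234604_s_at) and 27.7, 42.4 and 33.6 (M11942_s_at) as deposited. After normalization rc_AI234604_s_at was 1.78-fold higher at 16 weeks than at 8 weeks and 1.95-fold higher on the carcinoid array. The normalized values of M11942_s_at were 35.0, 39.5 and 30.0, lowest on the carcinoid array, so this pair disagreed. Neither can be assigned to Hspa8 alone. The stress-inducible Hspa1a had 1 probe set of its own, which read 3.0, 21.3 and 16.4 as deposited. It was below the floor at 8 weeks and at least 1.62-fold higher at 16 weeks. The array holds 6 genes of the list of other cytosolic HSP70, HSP110 and HSP90 proteins, Hspa1a among them. Of these, 4 reached the floor on at least 1 array, and 0 were counted as 2-fold or more apart in any comparison. The highest normalized value on this list, 23.8 for Hspa4 at 8 weeks, lay less than 2-fold above the floor. With lower values raised to the floor, none of these genes could reach 2-fold, so the count of 0 does not show that they were level. Hspa4, of the HSP110 family, reached the floor at 8 weeks alone and was at least 1.92-fold lower on both other arrays.

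Among other J proteins, 1 of 8 with a value was lower by 2-fold or more at 16 weeks and 2 of 8 on the carcinoid array against 8 weeks, with 0 higher. Over all genes these shares were 12.9% and 13.7% lower. Dnaja1, a cytosolic partner of HSP70, read 103.4, 67.8 and 82.5 as deposited on its brighter probe set. After normalization it was 2.37-fold lower at 16 weeks and 2.18-fold lower on the carcinoid array than at 8 weeks. Its other probe set, rc_AA800551_at, was below the floor at 8 weeks and above it elsewhere, by at least 3.13-fold at 16 weeks and at least 2.23-fold for carcinoid. The direction for Dnaja1 thus differed between probe sets. Dnajc1, a J protein of the endoplasmic reticulum membrane, was 2.37-fold lower on the carcinoid array than at 8 weeks (normalized 16.0 against 37.9). Dnajb9 and Dnajb5 went the other way without reaching 2-fold, with values 1.51-fold and 1.15-fold higher at 16 weeks.

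The mitochondrial chaperonin is a barrel of Hspd1 closed by a lid of Hspe1, made from neighbouring genes in mammals. The Hspd1 probe set X54793_at read 568.0, 411.7 and 403.0 as deposited and 1030.0, 381 and 317 after normalization, and was 2.7-fold lower at 16 weeks and 3.25-fold lower on the carcinoid array than at 8 weeks. The deposited values differed by only 1.38-fold and 1.41-fold, and scaling by the hybridisation controls turned the carcinoid difference to 0.081 on the log2 scale. The EST probe set rc_AA858640_s_at read 76.9, 112.9 and 128.0 as deposited and was level after normalization, at 108, 106 and 105. A fall in Hspd1 therefore rested on 1 of its 2 probe sets and on the scaling.

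Hspe1 likewise gave no single direction. Its probe set rc_AI170613_at read 146.4, 125.0 and 162.5 as deposited, and was 1.92-fold lower at 16 weeks and 1.69-fold lower on the carcinoid array than at 8 weeks after normalization. The probe set rc_AI170613_g_at, made from the same EST, read 33.5, 61.2 and 106.7. It was 1.32-fold higher at 16 weeks and 2.06-fold higher on the carcinoid array. Between carcinoid and 16 weeks both were higher on the carcinoid array under all 4 scalings, by 1.13-fold and 1.56-fold. These are log2 differences of 0.18 and 0.64, beside a spread between probe sets of 0.63.

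Other mitochondrial chaperones, importers and proteases were mixed. Of 8 genes with a value, 3 were higher by 2-fold or more at 16 than at 8 weeks and 2 lower, against 14.0% and 12.9% of all genes. Of the same genes, 1 was higher and 0 lower for carcinoid against 8 weeks, against 14.6% and 13.7% of all genes. Hspa9, the mitochondrial HSP70, read 15.7, 47.5 and 28.3 as deposited on its brightest probe set and was 2.32-fold higher at 16 weeks. The outer-membrane import receptor Tomm20 was 2.28-fold higher at 16 weeks and 3.19-fold higher on the carcinoid array than at 8 weeks. Its other probe set, U21871_at, was at least 1.87-fold lower at 16 weeks. Trap1, the mitochondrial HSP90, was lowest at 16 weeks (normalized 41.2, 14.6 and 46.3), 2.82-fold lower than at 8 weeks, and carcinoid exceeded 16 weeks by 3.17-fold. Timm44, which tethers the HSP70 import motor, was 2.38-fold lower at 16 weeks than at 8 weeks.

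Hspa5, the HSP70 of the endoplasmic reticulum known as BiP, was read by 1 probe set, M14050_s_at. It gave 222.5, 185.4 and 181.3 as deposited and 337, 168.5 and 149.5 after normalization, so that the 8-week array was highest and the other arrays were alike. It was 2.0-fold lower at 16 weeks, on the threshold itself, and 2.25-fold lower on the carcinoid array. As deposited the differences were 1.2-fold and 1.23-fold, and the carcinoid direction turned when scaled by the hybridisation controls, to 0.28 on the log2 scale. The probe sets S63521_i_at and S63521_r_at read at most 11.0 on any array and gave no fold.

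Other genes of the endoplasmic reticulum folding machinery lay in both directions. Of 17 with a value, 3 were higher and 1 lower by 2-fold or more at 16 than at 8 weeks, against 14.0% higher and 12.9% lower over all genes. For carcinoid against 8 weeks, 1 was higher and 1 lower, against 14.6% and 13.7% of all genes. The median log2 difference of the list was -0.40 in that comparison, beside -0.02 over all genes. The disulfide isomerase Pdia4 had a pattern near that of Hspa5, with normalized values of 46.3, 23.2 and 23.8. The lectin chaperone Canx was also highest at 8 weeks on the probe set used (880.4, 470.3 and 616), while its probe set rc_AI010725_at was 2.4-fold and 2.64-fold higher at 16 weeks and for carcinoid. Ppib, a prolyl isomerase of the compartment, read 33.0, 224.3 and 191.7 as deposited and was 4.85-fold higher at 16 weeks and 3.68-fold higher on the carcinoid array. Its second probe set, rc_AA818487_s_at, was 1.04-fold and 1.95-fold lower. The isomerase Pdia6 was 2.08-fold higher at 16 weeks, and Pdia2, a related isomerase, 2.94-fold higher at 16 weeks than at 8 weeks. Pdia2 was also 2.51-fold lower on the carcinoid array than at 16 weeks. In the other direction, Ppp1r15a, which promotes recovery of translation after stress, read 82.8, 36.3 and 33.2 and was 3.49-fold lower at 16 weeks and 4.0-fold lower on the carcinoid array than at 8 weeks. The luminal HSP90, Hsp90b1, was 1.79-fold and 1.6-fold lower than at 8 weeks on the probe set used, and Calr, a related lectin chaperone, 1.08-fold and 1.22-fold lower. Another Calr probe set, X53363cds_s_at, was 3.02-fold and 2.8-fold higher.

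Hsp90ab1, the constitutive cytosolic HSP90, differed by less than 2-fold on each of its 4 probe sets. The probe set rc_AI007820_s_at read 434.6, 600.5 and 792.3 as deposited and 616, 619 and 591 after normalization. These normalized values span 1.05-fold. The probe set rc_AI236795_s_at read 244.6, 220.1 and 260.6 and was 1.87-fold lower at 16 weeks and 1.81-fold lower on the carcinoid array than at 8 weeks. S45392_at read 45.6, 72.9 and 114.3, and was 1.57-fold higher on the carcinoid array than at 8 weeks and above it under all 4 scalings. The dim rc_AI008074_s_at read 21.3, 39.7 and 26.4. As deposited, S45392_at was 2.51-fold higher for carcinoid against 8 weeks.

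Of 9 co-chaperones and heat shock factors with a value, 1 was higher by 2-fold or more at 16 than at 8 weeks and 0 lower. Over all genes these shares were 14.0% higher and 12.9% lower. For carcinoid against 8 weeks, 1 was higher and 2 lower, against 14.6% and 13.7% of all genes. Cdc37, which brings kinases to HSP90, read 224.1, 265.3 and 175.9 on D26564_g_at and was 2.38-fold lower on the carcinoid array than at 8 weeks. Its other probe set, D26564_at, was 2.0-fold higher in the same comparison. St13, an HSP70-interacting co-chaperone, was 2.18-fold lower on the carcinoid array than at 8 weeks, from values near the floor (14.3 against 31.2). Its probe set X82021cds_at was higher by at least 1.19-fold in that comparison. The HSP90-binding protein Chordc1 was below the floor at 8 weeks and higher by at least 2.22-fold at 16 weeks and by at least 3.23-fold for carcinoid. Hsf1, the transcription factor that induces heat shock genes, was 1.18-fold lower at 16 weeks and 1.16-fold lower on the carcinoid array on rc_AI172097_g_at. Its probe sets rc_AI172097_at and X83094cds_at were 2.16-fold and 1.9-fold higher at 16 weeks, so the probe sets of Hsf1 disagreed.

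Hspb1, a small heat shock protein known as HSP27 that also binds actin filaments, had 4 probe sets, and they disagreed. The probe set rc_AA998683_at read 224.2, 205.6 and 196.0 as deposited and was 1.81-fold lower at 16 weeks and 2.12-fold lower on the carcinoid array after normalization. Its companion rc_AA998683_g_at, made from the same EST, read 127.0, 5.8 and 13.8. After normalization it lay below the floor at 16 weeks (5.37) and just below it on the carcinoid array (12.3), and was at least 15.0-fold lower on each than at 8 weeks. Only 0.0537% and 0.0356% of all probe sets lay as low or lower. The pair shares its source sequence, and 1 of them fell below the floor where the other kept its signal.

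The third EST probe set of Hspb1, rc_AI176658_s_at, read 264.5, 149.1 and 115.9 as deposited. It was 2.94-fold lower at 16 weeks and 4.2-fold lower on the carcinoid array than at 8 weeks, and lower in both under all 4 scalings. The probe set M86389cds_s_at was dim at 12.9, 13.5 and 37.8, and 2.11-fold higher on the carcinoid array than at 8 weeks and 2.61-fold higher than at 16 weeks. The carcinoid array was therefore the lowest for 2 of the 4 Hspb1 probe sets and the highest for 1.

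Hspb2 is a small heat shock protein of muscle. Its probe set U75899mRNA_g_at read 9.9, 61.8 and 16.3 as deposited and 12.03, 57.6 and 14.5 after normalization. The 16-week array stood alone, at least 4.65-fold above 8 weeks and 3.98-fold above carcinoid, while the other arrays lay near or below the floor. These directions held under all 4 scalings. The companion probe set U75899mRNA_at, made from the same sequence, read 8.1, 9.2 and 3.9 and showed no such rise.

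Muscle markers did not follow Hspb2 as a group. Of 9 smooth muscle genes on the array, 6 reached the floor. The summed normalized intensity of all 9 was 97.3, 172 and 186 on the 8-week, 16-week and carcinoid arrays. The smooth muscle light chain Myl9 was 2.82-fold higher at 16 weeks and 3.47-fold higher on the carcinoid array than at 8 weeks, and the intermediate filament gene Des was below the floor on all arrays. Of 19 striated muscle genes, 15 reached the floor, and the sums over all 19 were 359, 286 and 293. Of 13 with a value, 1 was higher and 1 lower by 2-fold or more at 16 than at 8 weeks, against 14.0% and 12.9% of all genes. Myl1, a skeletal muscle light chain, read 11.5, 45.9 and 19.5 as deposited and was 3.02-fold higher at 16 weeks than at 8 weeks, and carcinoid was 2.45-fold below 16 weeks. The part of muscle in the Hspb2 signal was not tested. Other small heat shock proteins were dim: 2 of 4 on the array reached the floor. Cryaa was 2.39-fold higher on the carcinoid array than at 16 weeks (normalized 31.0 against 13.0), and Hspb6, below the floor at 8 weeks, was higher by at least 1.57-fold at 16 weeks and by at least 1.85-fold for carcinoid.

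Clu encodes clusterin, a secreted chaperone that binds misfolded proteins outside the cell. Its only probe set, M64733mRNA_s_at, read 58.1, 103.1 and 21.3 as deposited and 79.8, 96.8 and 19.2 after normalization. The carcinoid array was the low one, 4.16-fold below 8 weeks and 5.05-fold below 16 weeks, and these directions held under all 4 scalings. Between carcinoid and 16 weeks, 0.11% of all probe sets lay as low or lower. The 16-week value was 1.21-fold above the 8-week value, within the spread between probe sets. As deposited it was 1.77-fold above, a log2 difference of 0.83 beside a spread of 0.79, and it was higher under all 4 scalings. No second probe set was there to check it.

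Other proteins with chaperone activity in extracellular fluid showed no shared direction. Of 7 with a value, 1 was higher and 2 lower by 2-fold or more at 16 than at 8 weeks, against 14.0% and 12.9% of all genes. For carcinoid against 8 weeks, 1 was higher and 1 lower, against 14.6% and 13.7%. Apoe, a lipid carrier, was lowest at 16 weeks on its probe set X04979_at (normalized 147, 18.3 and 60.5) and lowest on the carcinoid array on S76779_s_at (180, 31.3 and 23.5). Fibroblast and matrix genes had summed normalized intensities of 1543, 660 and 569, of which the proteoglycan gene Dcn gave 1090.0, 316.5 and 262. Without Dcn the sums were 452, 343 and 307. Endothelial genes had sums of 172, 123 and 78.9. ECL and neuroendocrine markers had sums of 509, 555.5 and 356. For carcinoid against 8 weeks, 4 of 10 were lower by 2-fold or more, where 13.7% of all genes were lower. Their part in the clusterin difference was not tested.

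The cytosolic chaperonin that folds actin and tubulin was sparsely covered, with 5 genes of this list and its cofactors on the array. Cct3, a subunit, was lowest at 16 weeks (normalized 48.1, 17.7 and 34.7), 2.71-fold below 8 weeks. The tubulin cofactor Tbce was 2.27-fold higher at 16 weeks and 3.2-fold higher on the carcinoid array than at 8 weeks. Pfdn2, a prefoldin subunit, was below the floor at 16 weeks and higher on the carcinoid array by at least 3.17-fold. These genes did not move together.

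**Figure D3:**
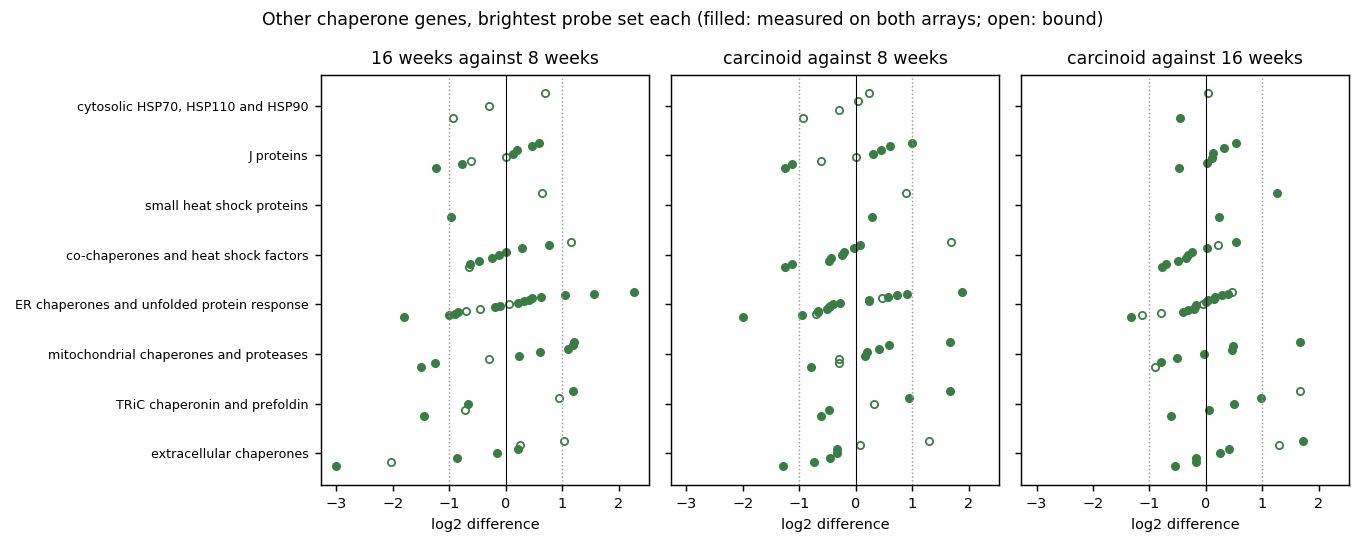
Log2 difference (horizontal axis) of chaperone genes outside the 9 described, grouped by list (vertical axis), in the 3 comparisons, with 1 point per gene for its brightest probe set and dotted lines at 2-fold. Filled points were measured on both arrays and open points are bounds. In 16 against 8 weeks, points of the endoplasmic reticulum list lie on both sides of 0, with 3 higher and 1 lower by 2-fold or more.

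Some probe sets of the same chaperone gene were far apart. Most pairs came from Hspb1 and Hsp90ab1 and reuse the same probe sets, so the pairs are not separate observations. Shares over all genes are not given, so the counts of pairs have no background to be read against. Of 15 pairs with values for 16 against 8 weeks, 8 differed by over 1 on the log2 scale and 4 had opposite signs. For carcinoid against 8 weeks, 8 of 15 pairs differed by over 1 and 7 had opposite signs. For carcinoid against 16 weeks these counts were 4 and 7 of 12 pairs. Dnajb1 was the only gene with more than 1 probe set of which all were at least 2-fold lower in both comparisons with 8 weeks.

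**Figure D4:**
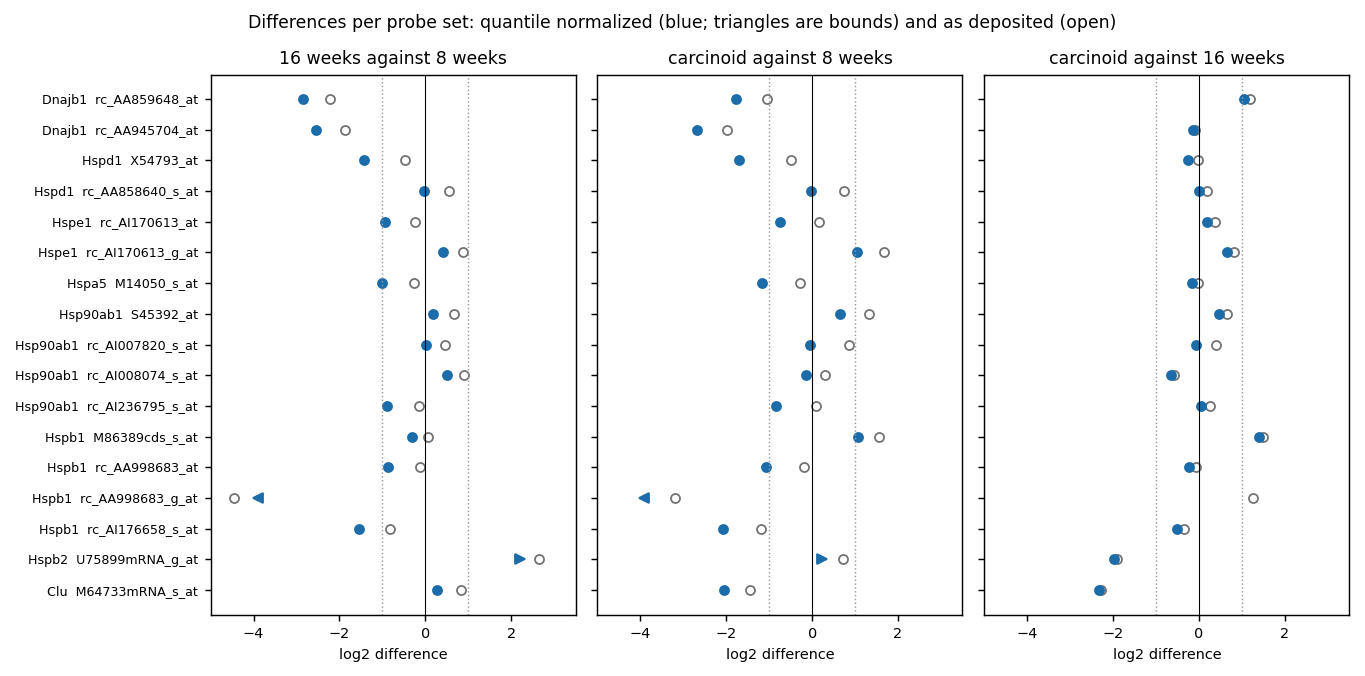
Log2 difference (horizontal axis) of each chaperone probe set at or above the floor on at least 1 array (rows), after quantile normalization (blue, triangles for bounds) and as deposited (open circles), with dotted lines at 2-fold. Both Dnajb1 rows lie left of 0 in the comparisons with 8 weeks under either scaling, while rows of Hspd1, Hspe1 and Hspb1 fall on both sides.

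Genes with the most similar pattern to a chaperone were found by the distance between centred log2 values over the 3 arrays, among 1747 genes at or above the floor on all of them. Each distance rests on 3 values of 1 probe set a gene: rc_AA945704_at for Dnajb1, rc_AA998683_at for Hspb1 and X54793_at for Hspd1, whose other probe sets had different patterns. Nearest to Dnajb1 was the keratin Krt4 at a distance of 0.11 (normalized 86.7, 13.8 and 13.7), followed by Slc13a2 at 0.47 and Mcpt1l1 at 0.55. Nearest to Clu were Slc25a4 (0.38), Abcc9 (0.42) and Chrm4 (0.44), all lowest on the carcinoid array. Hspd1 lay nearest to Gucy2e (0.11), Maz (0.12) and the proteasome activator Psme1 (0.14). Hspa5 lay nearest to Alpl (0.04), Colq (0.06) and Hand1 (0.07), and Hspb1 to Acsl4 (0.01), Adgrl1 (0.05) and Agxt (0.06).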

How the data were processed

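The samples were 3 Mastomys RNAs, each on 1 Affymetrix rat array, grouped by the description of each sample. The authors deposited 1 linear intensity per probe set and array. How it was computed and scaled is not given in the sources used here, intensity gives no depth, and the number of arrays limits the precision. Rat probes met Mastomys RNA, so differences between arrays were taken within a probe set. Intensities were also compared across probe sets to choose the brightest of a gene and the bright probe sets. They were summed over all genes of a marker list on the array. Of 8740 non-control probe sets, 7006 carried 1 gene symbol, 308 several and 1426 none, and only those with 1 were named. Arrays were quantile normalized, with the floor at the pooled median, 12.4. Differences of at least 2-fold were counted, with no test. For other genes the probe set of highest mean over the arrays, as deposited, was used. Up to 4 genes per list and comparison were to be named, the largest measured differences of at least 2-fold first. Other genes named were chosen after their values were seen. So were second probe sets. Likeness was sought for members at or above the floor on all arrays with a log2 range of at least 1, giving 3 genes each. Of the remaining marker lists, summed normalized intensities for 8 weeks, 16 weeks and carcinoid were 2682, 2609 and 1958 (parietal), 7983, 10070.0 and 7755 (chief), 1375, 1223 and 1655 (mucous), 438, 278 and 196 (leukocyte), 211, 193.5 and 163 (mast cell), 180.2, 153 and 186 (erythroid) and 229, 185 and 213.5 (neuron and glia). The genes and lists were chosen with earlier results of these data known. Steps were tested on simulated data. Python 3.11.15, pandas 2.3.3 and NumPy 2.4.6 were used.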

Additional observations from a re-analysis of the deposited data

How the results depend on the processing

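Counts below are chaperone probe sets at least 2-fold apart, and medians are log2 differences. As deposited, 3 were lower for 16 against 8 weeks (median -0.12) and 5 for carcinoid against 8 weeks (median 0.091), and the carcinoid against 16 weeks median was 0.18. Scaling by the median gave medians of -0.49 and -0.36 against 8 weeks, with 2 higher and 5 lower on the carcinoid array. Over all probe sets, 16.1% were higher and 12.2% lower for carcinoid against 8 weeks under that scaling. Scaling by the hybridisation controls gave 3 higher and 3 lower (median 0.039) for 16 against 8 weeks, 5 higher and 2 lower (0.53) for carcinoid against 8 weeks, and 4 higher (0.45) for carcinoid against 16 weeks. Over all probe sets that scaling gave 25.6% higher and 3.95% lower (median 0.47), 44.6% and 2.73% (0.86), and 24.6% and 6.30% (0.45). It also turned 3 probe sets that were at least 2-fold lower in carcinoid against 8 weeks after quantile normalization. These were Hspa5 (M14050_s_at, 0.28), Hspb1 (rc_AA998683_at, 0.38) and Hspd1 (X54793_at, 0.081). Counting differences of any size, 8 of 17 probe sets changed sign over the 4 scalings in that comparison. The counts were 4 of 17 for 16 against 8 weeks and 7 of 16 for carcinoid against 16 weeks. With the floor at the 25th percentile (4.2), 2 were higher for 16 against 8 weeks (median -0.26) and 4 lower for carcinoid against 16 weeks. With it at the 75th percentile (30.0), 0 were higher for 16 against 8 weeks, 1 for carcinoid against 8 weeks and 0 for carcinoid against 16 weeks, with 1 lower there. Adding the floor to each value without a filter left 0 higher on the carcinoid array in either comparison, with a median of -0.13 for 16 against 8 weeks. Taking the median of each gene gave -0.50 there. For the changes of sign, the changed floors and the added floor, shares over all probe sets are not given. Those counts have no background to be read against. EST probe sets alone, a choice made after seeing the data and with fewer probe sets, gave 0 higher for 16 against 8 weeks, 1 higher and 5 lower for carcinoid against 8 weeks, and 1 higher and 0 lower for carcinoid against 16 weeks. All EST probe sets gave 13.3% higher and 11.7% lower, 14.2% and 12.2%, and 9.03% and 8.46%. The cause of these changes was not tested. Of 297 single differences under other scalings and floors, 255 moved by less than the spread between probe sets and 39 by more. The remaining 3 are the probe sets named above, and other changes of sign were not counted as turned. Of 336 counts of other chaperone lists, 232 stayed within 1.5 times. No paired analysis was possible because each group has 1 array.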
